A study of Rattus norvegicus with 12 samples.

Results

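The subject is the effect of CHIR99021 (CHIR), an inhibitor of the kinase GSK3, in rat extraembryonic endoderm (XEN) cells that also received forskolin, an activator of adenylate cyclase. It rests on 6 of the 12 arrays of the study, the 3 titled as the combination of both compounds and the 3 titled as forskolin alone. The combination group had 3 µM CHIR for 2 days and 10 µM forskolin over the last 1 day, and the forskolin group had 10 µM forskolin for that 1 day and no CHIR. The other 6 arrays, 3 of untreated control cells and 3 of cells with 3 µM CHIR for 2 days, serve to show the effect of CHIR without forskolin. XEN cells are a stem cell line of the yolk sac lineage, here of the Fisher strain, and all 4 groups spent the last day in medium with 0.1% serum. CHIR was already present before the change to low serum, and the labels name no vehicle for the cells without a compound. They speak of parallels and not of separate cultures, so the p-values rest on a spread between arrays that could be technical only.

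GSK3 marks beta-catenin for destruction, and when the kinase is inhibited beta-catenin accumulates, enters the nucleus and acts with TCF and LEF factors on Wnt target genes, several of which encode feedback inhibitors of the pathway. Forskolin raises cAMP, which activates protein kinase A and the transcription factor CREB, the route that PTHrP uses in the early yolk sac. Extraembryonic endoderm forms parietal endoderm, single migratory cells that lay down a thick basement membrane, and visceral endoderm, a polarised epithelium that takes up nutrients.

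Each array gave a log2 signal for 16633 genes, taken as the median of the gene's probe sets, and a log2 difference of 1 is a doubling of signal. Array medians lay between 7.76 and 7.86, and the arrays of a group correlated at 0.985 to 0.991 across probe sets, against 0.969 to 0.972 between the combination and forskolin arrays. The 95th percentile of 1103 olfactory receptor genes, 6.42, served as a reference for background, and a gene with both group means below it is called near background. Where only 1 group lies below it, the printed difference is against background signal and its exact size cannot be read. Factors that mark the labelled cell type were bright, except Foxq1, which was near background (means of 5.70 in the combination and 5.82 with forskolin). Gata4 and Gata6, the GATA factors of primitive endoderm, read 12.35, 12.35 and 12.46 and 12.58, 12.63 and 12.59 in the combination. Sox17, an endoderm factor, read 11.88, 11.80 and 11.97 there, and the receptor gene Pdgfra read 12.51, 12.54 and 12.55. The defining secreted proteins of visceral endoderm, Afp (5.69, 5.58 and 5.55) and Ttr (6.41, 6.36 and 6.29), were near background or at its edge.

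Of the 16633 genes, 4998 (30.0%) differed between the combination and forskolin alone by limma at a Benjamini-Hochberg adjusted p under 0.05, with 2728 (16.4%) higher and 2270 (13.6%) lower with CHIR. By 1 log2 unit or more, 759 genes (4.56%) changed, 324 (1.95%) higher and 435 (2.62%) lower. In 7286 genes (43.8%) all 3 arrays of one group lay above all 3 of the other. The median difference over all genes was 0.001. Counts for groups of genes below are to be read against these shares. The shares include genes near background, as only 10189 genes lay above the reference in either group. A list made up of genes above the reference may exceed the shares for that reason, which was not tested. In these bulk samples, fewer cells of a type and less RNA per cell cannot be told apart.

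Wnt feedback genes were among the strongest responses to CHIR in forskolin-treated cells. The receptor gene Lgr5, the transcription factor gene Tcf7, the scaffold gene Axin2, Bmp4 and Ccnd1 (cyclin D1) each rose by more than 2 log2 units. Of 26 measured feedback genes and targets, 13 rose and 3 fell, with a median difference of 0.26 and 9 changes of 1 log2 unit or more. With bright genes only the median was 1.363. Without combination replicate 3 the count of rises was 8, and it then lacked Lgr4, Wif1, Kremen1, Myc and Sox9. The promoters of the members that rose and hold a TCF/LEF motif are shown first, since these factors are the route from beta-catenin to the gene, together with that of Emp1, the gene that rose most. They are RefSeq sequences of the rat build GRCr8 from 250 bases before to 50 bases after the start of the gene, and the capitals mark CTTTGAA or CTTTGAT as found on either strand. Axin2 lies at chr10:94398535-94398834 on the plus strand, Tcf7 at chr10:36954230-36954529 on the minus strand, Dkk1 at chr1:237798601-237798900 on the minus strand and Emp1 at chr4:169943980-169944279 on the plus strand.
Axin2: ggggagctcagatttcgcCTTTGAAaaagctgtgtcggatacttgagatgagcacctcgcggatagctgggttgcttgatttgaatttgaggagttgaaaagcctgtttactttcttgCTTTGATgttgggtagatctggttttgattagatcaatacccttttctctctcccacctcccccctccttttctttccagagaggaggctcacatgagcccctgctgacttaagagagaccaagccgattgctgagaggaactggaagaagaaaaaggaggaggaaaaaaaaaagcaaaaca
Tcf7: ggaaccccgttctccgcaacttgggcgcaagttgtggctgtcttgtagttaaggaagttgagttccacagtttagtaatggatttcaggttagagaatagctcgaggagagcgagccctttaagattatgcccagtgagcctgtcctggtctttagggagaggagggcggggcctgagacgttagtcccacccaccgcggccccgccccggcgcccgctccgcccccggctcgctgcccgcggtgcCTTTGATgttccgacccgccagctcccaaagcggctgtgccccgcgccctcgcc
Dkk1: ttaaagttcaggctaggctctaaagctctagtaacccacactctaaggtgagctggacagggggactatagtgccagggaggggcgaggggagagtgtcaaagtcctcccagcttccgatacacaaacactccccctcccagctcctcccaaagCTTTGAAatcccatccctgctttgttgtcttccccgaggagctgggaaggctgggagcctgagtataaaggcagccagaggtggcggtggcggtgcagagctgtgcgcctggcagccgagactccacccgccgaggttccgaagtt
Emp1: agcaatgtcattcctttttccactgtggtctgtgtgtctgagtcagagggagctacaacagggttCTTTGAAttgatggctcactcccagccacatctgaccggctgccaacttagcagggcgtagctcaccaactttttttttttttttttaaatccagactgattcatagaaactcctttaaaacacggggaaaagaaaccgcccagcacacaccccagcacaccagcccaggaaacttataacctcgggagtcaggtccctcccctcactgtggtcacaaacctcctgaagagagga
The Axin2 promoter held 2 matches and the others held 1 each. Of the 13 feedback genes that rose, 8 had a promoter entry and 3 of these held a match. Among the 12 largest rises of all genes the count was 2 of 8 with an entry (Emp1 and Ccl24), and among the 12 largest falls it was 1 of 8 (Cubn). Over all 33469 promoters of this length, 2921 (8.73%) held a match, which shows only that the letters occur there.

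Axin2 encodes the scaffold of the complex that destroys beta-catenin, and is induced by it. Its signal was 8.26, 8.92 and 8.79 on the 3 arrays of the combination and 6.05, 5.81 and 5.99 on those of forskolin alone. These do not overlap, and the difference was 2.71 (SE 0.142, adjusted p = 6.67e-09). Tcf7 encodes a partner of beta-catenin on DNA. It read 9.92, 9.84 and 10.03 with both compounds and 6.89, 7.55 and 7.09 with forskolin, a difference of 2.75 (SE 0.154, adjusted p = 1.17e-08). Lgr5 encodes a receptor for R-spondins, which amplify Wnt signals. Its values of 8.05, 8.70 and 8.53 stood above 5.23, 5.15 and 5.27, near background without CHIR, by 3.21 (SE 0.134, adjusted p = 8.54e-10). Rnf43, a ubiquitin ligase that removes Wnt receptors, rose less, from 8.25, 8.15 and 7.84 to 9.33, 9.14 and 9.17 and by 1.13 (adjusted p = 1.75e-06).

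Dkk1 encodes a secreted Wnt antagonist. Its signal was 9.55, 9.56 and 9.73 in the combination and 8.29, 7.93 and 7.85 with forskolin, which gives 1.59 (SE 0.122, adjusted p = 2.81e-07). Without forskolin CHIR went with a difference in the opposite direction, -0.36 (adjusted p = 0.0402), and the test of the difference between these effects gave 1.95 (adjusted p = 1.23e-05). Cyclin D1 drives entry into the cell cycle. Ccnd1 read 9.79, 9.72 and 9.44 in the combination against 7.34, 7.35 and 7.44, a difference of 2.27 (SE 0.130, adjusted p = 1.45e-08). Its control and CHIR means were 9.46 and 10.00, so of the 4 groups only forskolin alone had a mean under 9. Bmp4, a secreted BMP ligand, rose from 8.94, 8.94 and 8.86 to 11.63, 11.19 and 11.37, by 2.49 (SE 0.106, adjusted p = 1e-09). The intestinal and trophoblast homeobox gene Cdx2, near background in forskolin, rose by 1.91 (SE 0.174, adjusted p = 1.49e-06).

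Not every Wnt target moved. Lef1 (0.053, adjusted p = 0.669), Sp5 (0.080, adjusted p = 0.685), Nkd1 (-0.020, adjusted p = 0.918) and Notum (0.006, adjusted p = 0.979), common targets in other cells, were near background in both groups and did not pass. The Eph receptor genes Ephb2 and Ephb3, Wnt targets in the intestine, fell. Ephb2 read 8.21, 8.00 and 8.15 in the combination and 9.88, 9.98 and 9.91 in forskolin, without overlap, for a difference of -1.80 (SE 0.097, adjusted p = 8.21e-09). Ephb3 fell by less, with a difference of -0.54 (adjusted p = 9.26e-05). Among 33 ligands, receptors and core components of the pathway, 9 rose and 10 fell. The frizzled receptor gene Fzd6 rose from 6.42, 6.28 and 6.35 to 8.93, 9.01 and 8.83, by 2.57 (SE 0.093, adjusted p = 1.93e-10), and the ligand gene Wnt11 by 1.04 (adjusted p = 1.95e-05). The antagonist gene Sfrp1 and the ligand gene Wnt7b fell, with differences of -3.43 and -1.33 (adjusted p = 1.07e-09 and 6.54e-07).

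The largest rises were led by Emp1, a gene for a tetraspan membrane protein. It read 10.52, 10.36 and 10.56 in the combination and 5.66, 5.91 and 5.66 in forskolin. The groups were far apart, with a difference of 4.74 (SE 0.092, adjusted p = 9.66e-13). The forskolin mean of 5.75 lies below the background reference, and against that reference Emp1 was at least 16.6-fold higher. Its means in control and CHIR alone were 5.69 and 8.75, and the difference between the effects of CHIR with and without forskolin was 1.67 (adjusted p = 4.78e-06). Ccl24, which encodes a chemokine, rose by 3.47 (SE 0.123, adjusted p = 1.77e-10), with arrays at 9.04, 9.47 and 9.58 against 5.95, 5.80 and 5.93, the latter at background, so that it was at least 7.68-fold higher. Of the 12 largest rises 7 had a forskolin mean below the reference, and of the 12 largest falls 5 had a combination mean below it. The rise of Ccl24 was smaller than without forskolin, with a difference between the effects of -1.17 (adjusted p = 0.000897).

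Genes for ion pumps and channels went both ways, with 6 of 17 higher and 4 lower (2 lower where the brightest probe set stood for a gene). Atp1b1, the beta subunit of the sodium pump, read 9.94, 10.60 and 10.52 in the combination and 6.62, 7.07 and 6.97 in forskolin, a difference of 3.46 (SE 0.153, adjusted p = 1.3e-09). Trpm6, a magnesium channel, rose by 2.98 (adjusted p = 1.07e-09). The cation channel genes Trpm2 and Trpm4 fell, with differences of -3.41 and -1.67 (adjusted p = 3e-10 and 1.15e-05). The brightest probe set of Trpm2 gave -0.274 (adjusted p = 0.475).

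Other large rises were those of S100g, a cytosolic calcium-binding protein (2.75, adjusted p = 1.91e-10), and of the serum-induced kinase gene Sgk1 (3.02, adjusted p = 5.5e-10). H19, an imprinted noncoding RNA, was among the most even responses, at 11.89, 11.87 and 11.98 against 8.58, 8.62 and 8.57 and 3.32 (SE 0.067, adjusted p = 9.66e-13). The growth factor gene Igf1 rose by 2.81 (adjusted p = 1.49e-09), the membrane metalloproteinase gene Mmp15 by 3.35 (adjusted p = 7e-12), the LIM domain gene Fhl1 by 3.15 (adjusted p = 1.99e-11) and Pbld1 by 3.10 (adjusted p = 1.07e-09). The brightest probe set of Fhl1 gave -0.009 (adjusted p = 0.971).

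The largest fall was that of Tfec, a transcription factor gene of the MITF family. It read 6.59, 6.42 and 6.50 in the combination against 11.08, 10.86 and 11.00 in forskolin. The difference of -4.47 (SE 0.218, adjusted p = 3.23e-09) is a 22.2-fold lower signal, and the remaining signal was at the edge of the background reference. Mitf itself fell from 8.76, 8.82 and 8.90 to 6.12, 6.17 and 6.42, a difference of -2.58 (SE 0.135, adjusted p = 6.27e-09), to that reference or below it. Tfeb, another gene of that family, rose, with 9.52, 9.55 and 9.56 against 8.68, 8.64 and 8.38 and 0.98 (SE 0.095, adjusted p = 2.59e-06), although its brightest probe set gave 0.018 (adjusted p = 0.923).

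Ret, a receptor kinase for ligands of the GDNF family, read 6.58, 6.95 and 7.12 in the combination and 10.83, 10.68 and 10.86 in forskolin, a difference of -3.91 (SE 0.128, adjusted p = 8.7e-11). Of its 23 probe sets 22 were lower, while the brightest gave -0.182 (adjusted p = 0.473). Insrr, a relative of the insulin receptor, fell from 11.96, 12.17 and 12.03 to 9.01, 8.91 and 8.98, a difference of -3.09 (SE 0.198, adjusted p = 4.72e-08). Gipr, the receptor of an incretin hormone, fell by 3.18 (SE 0.131, adjusted p = 7.73e-10), and Npy4r, a receptor of the neuropeptide Y family, had a difference of -3.17 (SE 0.120, adjusted p = 3.02e-10). The cytokine receptor gene Il17rb differed by -3.06 (adjusted p = 8.54e-10). Igfbp7, a secreted binding protein, read 6.29, 6.53 and 6.36 against 10.28, 10.20 and 10.08, a difference of -3.79 (SE 0.095, adjusted p = 7.71e-12). The endocytosis gene Amph differed by -3.30 (adjusted p = 3.41e-11) and the crosslinking enzyme gene Tgm2 by -3.15 (adjusted p = 3.38e-09). Of 29 growth factor and receptor kinase genes, 13 fell and 5 rose.

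**Figure D1:**
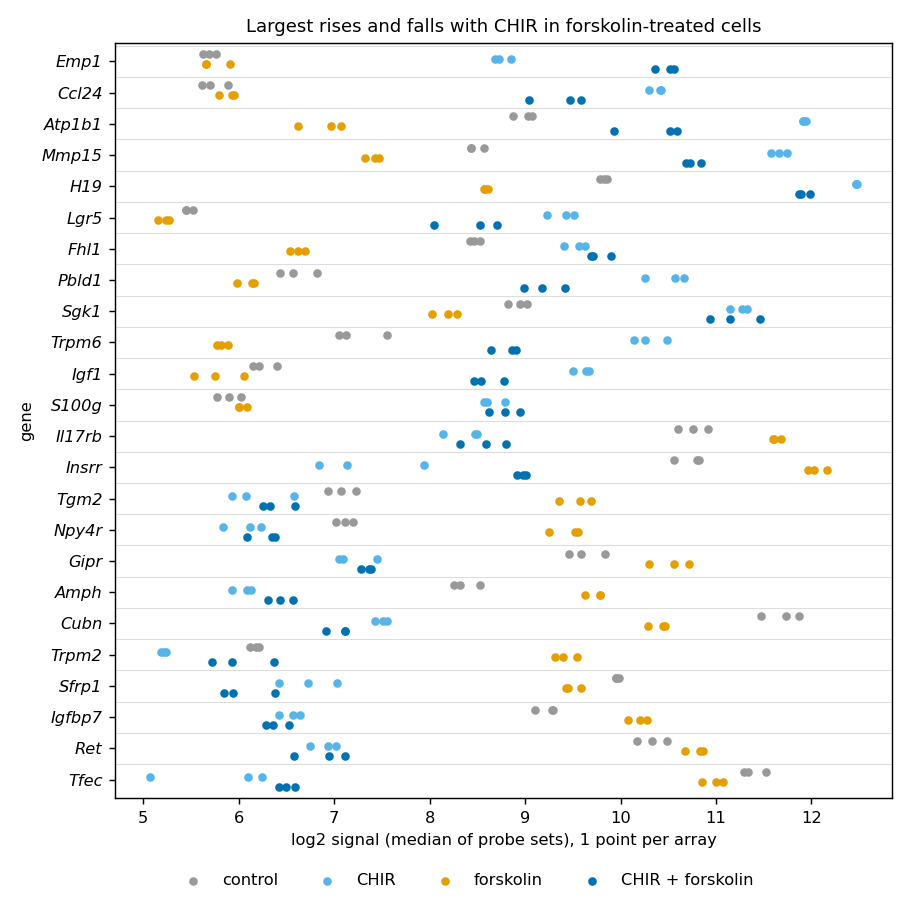
Log2 signal on the horizontal axis of the 12 genes that rose most and the 12 that fell most with CHIR in forskolin-treated cells, 1 point per array and 1 colour per group. In each gene the combination arrays lie wholly above or wholly below the forskolin arrays, as from 5.66, 5.91 and 5.66 to 10.52, 10.36 and 10.56 in Emp1.

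Most parietal endoderm genes fell when CHIR was added to forskolin. Of 19 measured members, 14 fell and 3 rose, with a median difference of -0.62, and all 19 lay above the background reference. The median was -0.309 where the brightest probe set stood for a gene. Vim, the intermediate filament of migratory cells, read 9.68, 9.81 and 9.93 in the combination against 12.79, 12.77 and 12.73. The change was -2.96 (SE 0.216, adjusted p = 1.65e-07), or 7.77-fold lower. The gene of tissue plasminogen activator, Plat, fell from 11.25, 11.36 and 11.35 to 9.00, 9.03 and 9.27, a difference of -2.22 (SE 0.111, adjusted p = 4.17e-09). Thbd, which encodes thrombomodulin, fell by 1.14 (SE 0.115, adjusted p = 3.9e-06), and the PTHrP receptor gene Pth1r had a difference of -0.75 (SE 0.082, adjusted p = 7.82e-06).

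All 8 basement membrane genes of the list fell, by unequal amounts. Nid1, a linker of laminin and collagen IV, read 11.01, 11.22 and 11.20 against 12.96, 13.02 and 12.99, without overlap and with a difference of -1.85 (SE 0.079, adjusted p = 1.07e-09). The collagen IV genes Col4a1 and Col4a2 differed by -0.62 and -0.62 (adjusted p = 8.25e-05 and 0.000152), with -0.140 (adjusted p = 0.230) at the brightest probe set of Col4a1. Nid2 differed by -0.71 (adjusted p = 3.17e-05) and the perlecan gene Hspg2 by -0.66 (adjusted p = 5.51e-05). The laminin chains Lama1, Lamb1 and Lamc1 differed by -0.37, -0.39 and -0.50 (adjusted p = 0.00152, 0.000648 and 0.000163). Sparc, a matrix protein gene, differed by -0.21 (adjusted p = 0.0394), and it no longer passed without any 1 combination array or without forskolin replicate 2 or 3 (-0.224 to -0.181, adjusted p = 0.0643 to 0.128). Krt8, a keratin gene on the same list, rose from 10.98, 10.87 and 11.00 to 11.94, 12.03 and 11.93, by 1.01 (SE 0.080, adjusted p = 3.43e-07), and the activin antagonist gene Fst by 0.74 (adjusted p = 0.000265). Krt18, the partner of Krt8, rose by 0.45 (adjusted p = 0.0226), and it no longer passed without combination replicate 2 or 3 or forskolin replicate 1 or 2 (0.391 to 0.451, adjusted p = 0.0548 to 0.0864). Snai1, a repressor of E-cadherin, did not pass (0.080, 95% interval -0.09 to 0.25, adjusted p = 0.511).

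Visceral endoderm genes split. Of 28 measured members, 6 rose and 6 fell, and 13 lay near background in both groups. The nuclear receptor gene Hnf4a rose from 7.00, 6.95 and 6.65 to 8.20, 8.32 and 8.69, by 1.53 (SE 0.138, adjusted p = 1.2e-06). Its control mean was 8.90 and its mean with CHIR alone 10.16, so the combination lay between forskolin and control. Cldn6, a tight junction gene, rose by 1.51 (SE 0.087, adjusted p = 1.55e-08), and Cdh1, which encodes E-cadherin, by 0.80 (SE 0.093, adjusted p = 1.41e-05). Lrp2, the uptake receptor megalin, rose by 0.47 (SE 0.121, adjusted p = 0.00827).

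Other genes of that uptake machinery fell. Cubn, which encodes cubilin, read 7.11, 7.11 and 6.91 in the combination and 10.29, 10.44 and 10.47 in forskolin, a difference of -3.35 (SE 0.105, adjusted p = 5.11e-11) with 62 of 65 probe sets lower. Amn, the membrane anchor of cubilin, fell by 0.72 (SE 0.097, adjusted p = 5.8e-05), with -0.278 (adjusted p = 0.0537) at its brightest probe set. Dab2, an endocytic adaptor, fell from 12.92, 12.85 and 12.92 to 11.95, 11.97 and 12.11, a difference of -0.89 (SE 0.075, adjusted p = 6.87e-07). The metal transporter gene Slc39a8 differed by -1.18 (adjusted p = 8.42e-06). The 2 weakest rises, Foxa2 and Ihh, and the fall of Cyp26a1 were not stable. Foxa2 (0.38, adjusted p = 0.0425) kept its call only without forskolin replicate 2, with 0.244 to 0.421 (adjusted p = 0.0601 to 0.195) without each other array. Ihh (0.39, adjusted p = 0.0356), near background in both groups and with -0.122 at its brightest probe set, lost it without combination replicates 1 and 2 and forskolin replicates 1 and 2 (0.317 to 0.395, adjusted p = 0.0729 to 0.133). Cyp26a1 (-0.52, adjusted p = 0.0152) lost it without combination replicates 1 and 3 and forskolin replicate 1 (-0.398 to -0.470, adjusted p = 0.0586 to 0.0744). Of 11 anterior visceral endoderm genes 3 rose, Dkk1, Fzd5 (0.82, adjusted p = 3.05e-05) and Amot (0.47, adjusted p = 0.0011), and 0 fell (5 rises without combination replicate 1 or with the mean of probe sets). The share called was 27.3%, near the 30.0% of all genes.

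Of 13 extraembryonic endoderm factors and receptors, 8 fell and 1 rose, with a median of -0.36. Beside Tfec and Dab2, the cytokine receptor gene Lifr fell from 11.73, 11.84 and 11.99 to 10.55, 10.56 and 10.50, a difference of -1.31 (SE 0.105, adjusted p = 3.98e-07). The changes of the lineage factors were small beside these. Gata6 differed by -0.40 and Sox7 by -0.36 (adjusted p = 0.000477 and 0.0014), while Gata4 (-0.005, 95% interval -0.15 to 0.14, adjusted p = 0.973) and Sox17 (-0.12, 95% interval -0.27 to 0.03, adjusted p = 0.228) did not pass. Klf4 rose (0.37, adjusted p = 0.00127, with 0.225 and adjusted p = 0.0557 at its brightest probe set) and Klf5 fell (-0.40, adjusted p = 0.0016). Pou5f1, the gene of the pluripotency factor Oct4, read 6.59, 6.83 and 7.06 against 8.68, 8.52 and 8.49, a difference of -1.74 (SE 0.177, adjusted p = 4.21e-06). The DNA methyltransferase genes Dnmt3b and Dnmt3a also fell (-1.32 and -0.63, adjusted p = 4.96e-05 and 0.000424), whereas Uhrf1, which guides maintenance methylation at replication, rose by 1.47 (SE 0.105, adjusted p = 1.4e-07).

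**Figure D2:**
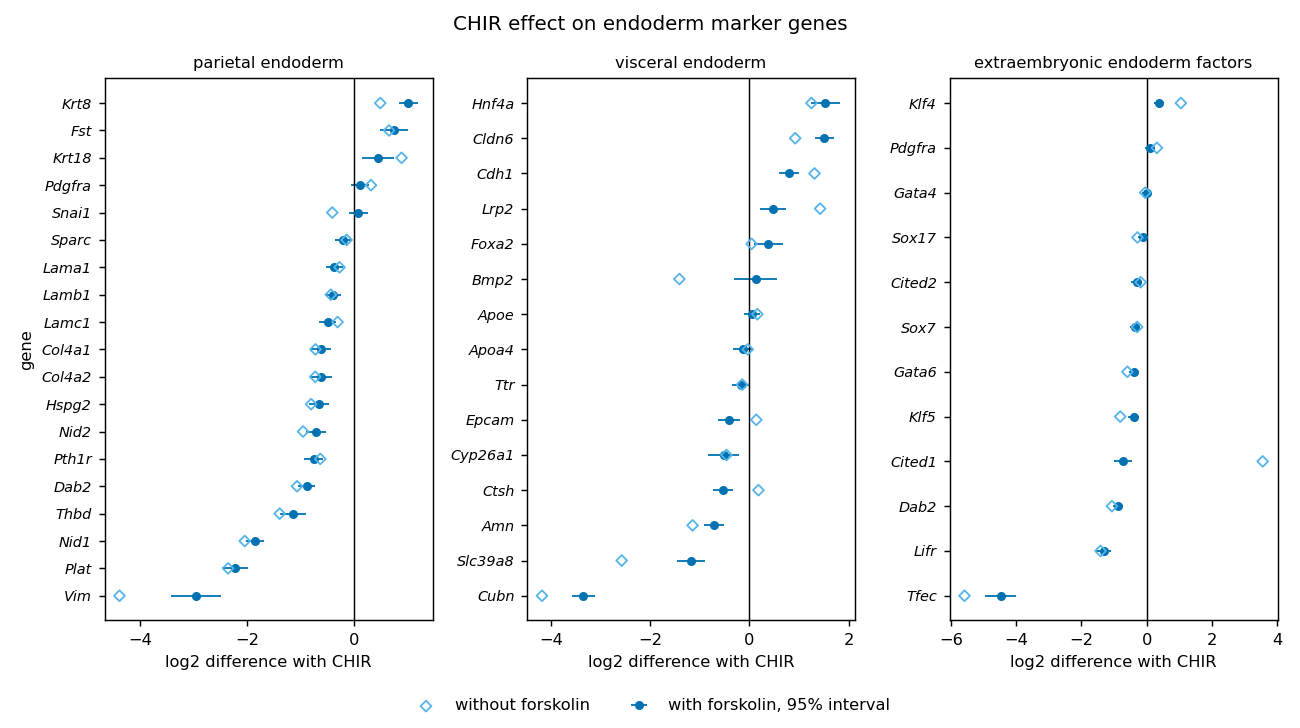
Log2 difference with CHIR on the horizontal axis for parietal, visceral and extraembryonic endoderm genes above the background reference, with forskolin (filled points, bars are 95% intervals from limma) and without (open diamonds). Vim (-2.96 with and -4.38 without forskolin) is the lowest parietal gene in both, and Cited1 has opposite signs (-0.71 and 3.56).

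Genes of epithelial junctions and identity went both ways, with 9 of 34 higher and 6 lower and a median of 0.087. The junction gene Cgn rose by 0.91 (SE 0.132, adjusted p = 0.000109), beside Cldn6, Krt8 and Cdh1. The tight junction gene Cldn7 fell, with 7.13, 7.29 and 7.03 in the combination and 7.87, 7.94 and 7.88 in forskolin and a difference of -0.74 (SE 0.103, adjusted p = 7.03e-05). The adhesion gene Epcam also fell (-0.41, adjusted p = 0.00618). CHIR without forskolin gave 16 rises and 0 falls on this list, and the difference between the effects passed for 14 genes, 12 of them with the more negative value in forskolin-treated cells. Among its genes Cdh1 had a mean of 10.81 in control, 12.12 with CHIR, 9.47 with forskolin and 10.27 with both. In the same order Cldn7 had 8.67, 10.86, 7.90 and 7.15. Cldn6 had 11.54, 12.47, 9.75 and 11.26.

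Of 14 mesenchymal genes 3 fell, 1 of them Vim, and 1 rose. The 28.6% called was near the 30.0% of all genes. The rise was that of Prrx1 (0.42, adjusted p = 0.0392), a gene near background, and it was lost without combination replicate 1 or 2 or forskolin replicate 1 or 2. Prrx1 turned negative with the mean (-0.009) and the brightest (-0.294) probe set. Gpm6b, a membrane glycoprotein gene, fell by 2.23 (SE 0.158, adjusted p = 1.21e-07), and the receptor kinase gene Axl had a difference of -0.97 (SE 0.180, adjusted p = 0.00086). Matrix, protease and integrin genes fell more often than they rose, 14 against 5 of 32 (2 rises where the brightest probe set stood for a gene). Col6a2, a collagen VI chain, read 7.78, 7.66 and 7.64 against 9.61, 9.80 and 9.44, a difference of -1.92 (SE 0.102, adjusted p = 7.44e-09), and the integrin gene Itga2 differed by -1.52 (SE 0.085, adjusted p = 1.26e-08). The rises included Timp3, an inhibitor of metalloproteinases, with 1.38 (SE 0.075, adjusted p = 9.21e-09). Of 22 actin, contractile, SRF and YAP target genes, 11 fell (8 to 10 when any 1 array was left out) and 3 rose. The tropomyosin gene Tpm2 fell by 1.37 (SE 0.164, adjusted p = 1.83e-05) and the actin-binding gene Nexn had a difference of -0.83 (SE 0.109, adjusted p = 4.16e-05), while Tpm1 rose by 1.07 (SE 0.116, adjusted p = 7.42e-06) and the tissue factor gene F3 by 1.53 (SE 0.107, adjusted p = 1.08e-07).

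Cell cycle genes rose as a group. All 27 measured mitosis and G2/M genes were higher with CHIR, with a median of 0.97 and 11 changes of 1 log2 unit or more, and their mean over the list lay at 11.05 to 11.09 on the combination arrays against 10.12 to 10.21 on the forskolin arrays. The count was 26 or 27 without any single array and 24 where a gene's brightest probe set stood for it. Cdk1, the kinase that starts mitosis, read 10.98, 11.17 and 11.17 in the combination and 9.72, 9.59 and 9.68 in forskolin, a difference of 1.45 (SE 0.084, adjusted p = 1.79e-08). The spindle midzone gene Prc1 rose by 1.27 (SE 0.073, adjusted p = 1.45e-08), the checkpoint kinase gene Ttk by 1.22 (SE 0.089, adjusted p = 1.6e-07) and the cyclin gene Ccna2 by 1.20 (SE 0.112, adjusted p = 1.73e-06). Of 28 DNA replication genes 18 rose and 0 fell, with a median difference of 0.50. Cdc6, which loads the replicative helicase, rose from 9.04, 8.71 and 8.68 to 10.26, 10.42 and 10.42, by 1.56 (SE 0.108, adjusted p = 9.77e-08). Orc1, of the origin recognition complex, rose by 1.45 (SE 0.074, adjusted p = 5.36e-09), the replication factor gene Mcm10 by 1.14 (SE 0.087, adjusted p = 2.54e-07) and the chromatin assembly gene Chaf1a by 0.97 (SE 0.105, adjusted p = 7.42e-06). Without forskolin, 24 of the mitosis genes rose, and 8 passed the test of the difference between the effects, all with the larger value in forskolin-treated cells.

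Targets of cAMP signalling went both ways when CHIR was added to forskolin. Of 29 measured targets 7 (24.1%) fell and 4 (13.8%) rose, against 13.6% and 16.4% of all genes. The median difference was -0.078, and most targets did not pass. The rises numbered 2 without combination replicate 2, and with the brightest probe set 3 fell and 2 rose. Sik1, a kinase gene induced by CREB, read 7.89, 7.94 and 8.20 against 9.84, 9.82 and 9.82, a difference of -1.82 (SE 0.111, adjusted p = 2.84e-08), and its brightest probe set gave -0.061 (adjusted p = 0.748). The control mean of Sik1 was 7.47. The phosphodiesterase gene Pde3a fell by 1.42 (SE 0.133, adjusted p = 1.82e-06), and the nuclear receptor gene Nr4a3 from 9.94, 9.81 and 9.96 to 8.66, 8.75 and 8.72, a difference of -1.19 (SE 0.127, adjusted p = 6.14e-06). The hormone gene Trh fell by 1.25 (SE 0.250, adjusted p = 0.00147), with combination replicate 1 at 8.49 and the other arrays of that group at 7.31 and 7.42. Among 27 genes of the PTHrP receptor, adenylate cyclase and PKA machinery, 5 (18.5%) fell and 0 rose, with a median difference of 0.052. The share called was thus below the 30.0% of all genes. The falls included the cAMP-activated exchange factor gene Rapgef3 (-1.09, adjusted p = 2.91e-05), the cyclase gene Adcy6 (-0.75, adjusted p = 8.17e-05) and Pth1r.

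Of 11 measured genes that cAMP controls in thyroid cells, 4 fell and 0 rose. Tshr, the thyrotropin receptor, read 7.51, 7.99 and 8.09 in the combination and 9.77, 9.75 and 9.64 in forskolin, a difference of -1.86 (SE 0.129, adjusted p = 9.98e-08). Duoxa2, a maturation factor of dual oxidase, fell from 11.58, 11.48 and 11.55 to 9.72, 9.94 and 9.95, a difference of -1.67 (SE 0.107, adjusted p = 4.61e-08), but stayed above its control mean of 7.16. Duox1 and the iodide transporter gene Slc5a5 differed by -0.72 and -0.72 (adjusted p = 8.79e-06 and 2.3e-05).

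Other signalling genes responded singly. Egr1, an immediate early gene downstream of ERK, read 7.34, 7.32 and 7.24 in the combination and 9.66, 9.70 and 9.63 in forskolin, without overlap, and the difference was -2.36 (SE 0.127, adjusted p = 7.92e-09). The ERK phosphatase gene Dusp5 fell by 0.94 (SE 0.095, adjusted p = 3.96e-06), while the stress gene Ier3 and the receptor antagonist gene Lrig1 rose by 1.22 and 1.20 (adjusted p = 4.51e-08 and 1.2e-07). In all, 7 of 21 ERK feedback and immediate early genes rose and 6 fell (5 to 7 and 4 to 6 when any 1 array was left out). Of 26 BMP and TGF-beta genes 5 rose and 6 fell. Id1, a BMP target, rose from 5.93, 5.92 and 5.78 to 7.03, 7.08 and 7.07, by 1.18 (SE 0.087, adjusted p = 1.67e-07), and the matrix gene Tgfbi, induced by TGF-beta, differed by -1.84 (SE 0.113, adjusted p = 2.93e-08), with -0.353 (adjusted p = 0.395) at its brightest probe set. Bmp6 fell by 1.12 (SE 0.148, adjusted p = 4.52e-05).

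Among genes of the secretory route, lipid synthesis and glycolysis, changes were smaller, with 0 of 1 log2 unit or more in each of these 3 lists. Of 24 endoplasmic reticulum chaperone and unfolded protein genes 8 fell and 2 rose, with 4 falls without combination replicate 1 or forskolin replicates 1 or 3 and 1 rise without each array but combination replicate 1 (3 rises). With the brightest probe set or the 6 arrays alone 5 fell and 1 rose, and with the mean of probe sets 4 rose. Herpud1, of protein degradation at the reticulum, differed by -0.56 (adjusted p = 0.000291), and the stress factor gene Ddit3 rose by 0.92 (adjusted p = 6.71e-05). Of 23 lysosomal genes and their regulators 4 rose and 5 fell, and the falls include Tfec and Mitf. The rises numbered 1 without combination replicate 1 and 2 without combination replicate 2 or forskolin replicates 1 or 3, and 1 with the brightest probe set and 2 with the replicate block or median centring. Of 16 genes of sterol and fatty acid synthesis 3 rose (5 without combination replicate 1, and 1 with the brightest probe set) and 5 fell (8 with a trended prior), among them the cyclase gene Lss (-0.72, adjusted p = 3.65e-05) and Srebf1, a master regulator of lipid synthesis (-0.53, adjusted p = 8.05e-05). Of 24 glycolysis and hypoxia genes 4 rose and 5 fell (2 with the brightest probe set). The phosphofructokinase gene Pfkp rose (0.58, adjusted p = 6.26e-05) and the glucose transporter gene Slc2a3 fell (-0.46, adjusted p = 0.000107). Among 21 interferon and antigen processing genes, Gbp2 rose (1.33, adjusted p = 6.79e-08), and 3 fell, led by the immunoproteasome gene Psmb9 (-1.10, adjusted p = 3.21e-06). With the brightest probe set 2 rose and 5 fell, and with the mean 3 rose.

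Of 13 trophoblast markers 3 rose, Cdx2, Gata3 (0.95, adjusted p = 7.42e-06) and Gata2 (0.75, adjusted p = 0.000406), and 1 fell (2 without combination replicate 2 or forskolin replicate 3, and 3 with the mean or brightest probe set). The share called was 30.8%, near the 30.0% of all genes. The mean over that list was 6.33 to 6.36 on the combination arrays and 6.18 to 6.23 on the forskolin arrays. Of 9 mesoderm and definitive endoderm markers 2 fell (1 with the brightest probe set), and of 13 blood and endothelial markers 2 fell (4 with the mean and 1 with the brightest), with list means between 5.84 and 6.01 and between 6.29 and 6.45 in these 6 arrays. The shares called, 22.2% and 15.4%, were below that of all genes. Of 12 fibroblast markers, whose list means lay between 5.65 and 5.78, 2 rose, Prrx1 and Col1a2 (0.30, adjusted p = 0.012). The 16.7% called was also below the share of all genes. There were 0 rises without combination replicate 2 and 1 without forskolin replicate 1 or 2. With the mean of probe sets there were 0 as well, and with the brightest both genes had values below 0, with Prrx1 at -0.294 and Col1a2 at -0.479 (adjusted p = 0.000855). The part of such cells in the results above was not tested.

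**Figure D3:**
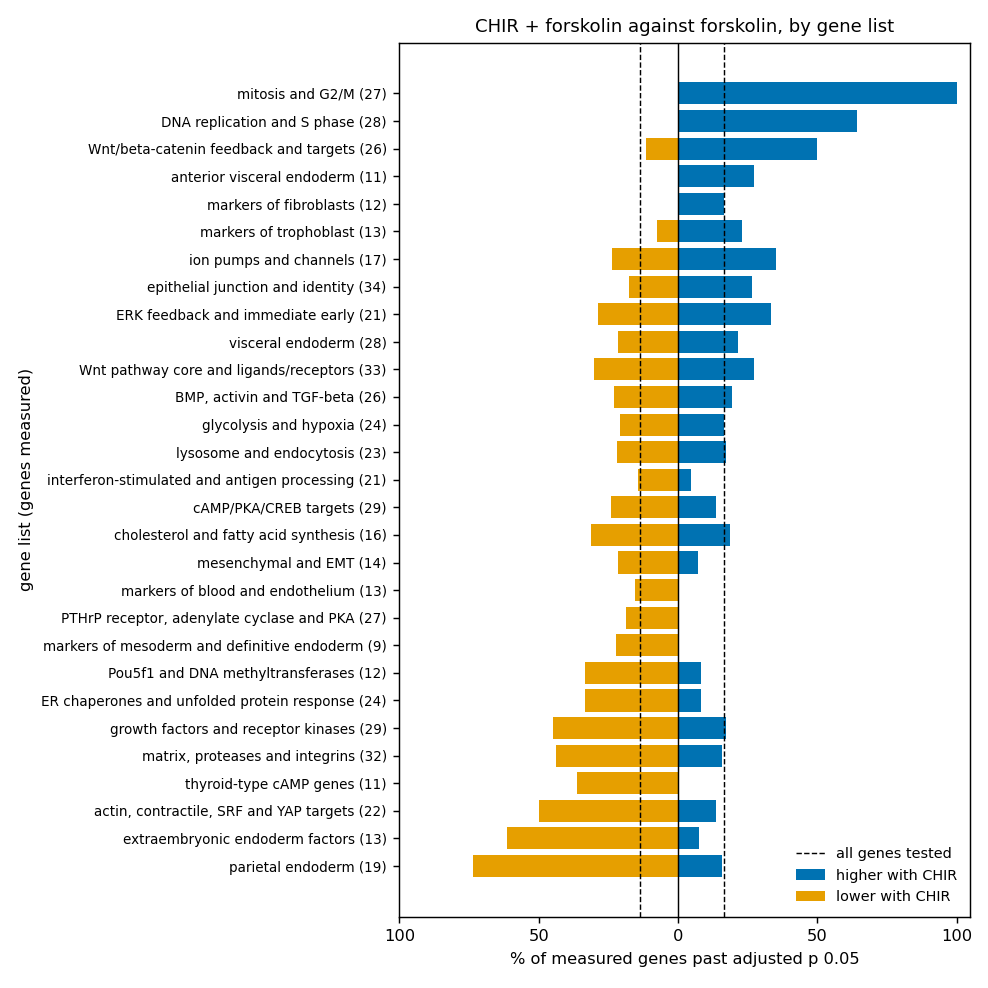
Share of the measured genes of each of 29 lists that were higher (blue, right) or lower (orange, left) in the combination than in forskolin alone at an adjusted p under 0.05, with the number measured in brackets. Dashed lines mark the shares over all genes, those near background included, at 16.4% and 13.6%. The mitosis list (27 of 27 higher) and the parietal endoderm list (14 of 19 lower) stand at the ends.

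The same effect of CHIR can be measured without forskolin in the other 6 arrays, which share none with the comparison above. There, 4677 genes (28.1%) differed between CHIR and control, 2373 (14.3%) higher and 2304 (13.9%) lower. Across the 16633 genes the 2 sets of differences correlated at r = 0.768, given as a description since genes are not independent replicates. Of the 4998 genes called with forskolin, 4588 (91.8%) had the same sign without it, against 71.4% of all genes. The 3149 genes called in the same direction both times make up 63.0% of those called with forskolin and 67.3% of those called without. Another 76 were called in opposite directions. All 24 of the largest rises and falls described above were called in the same direction without forskolin. The test of the difference between the effects passed for 16 of these 24. However, 12 of the 24 had a combination or forskolin mean below the background reference, where the exact size of the effect cannot be read. In Npy4r, Tgm2 and Trpm2 both groups with CHIR lay below it.

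A test of the difference between the effects passed for 1050 genes (6.31%), 540 (3.25%) with the more positive value in forskolin-treated cells and 510 (3.07%) with the more negative. The 76 genes with opposite calls were all among them. The count depended on how probe sets were combined, with 1870 for their mean and 630 for the brightest. Among actin, contractile, SRF and YAP target genes 12 of 22 passed with a positive difference and 1 with a negative one. CHIR without forskolin lowered 17 of them.

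**Figure D4:**
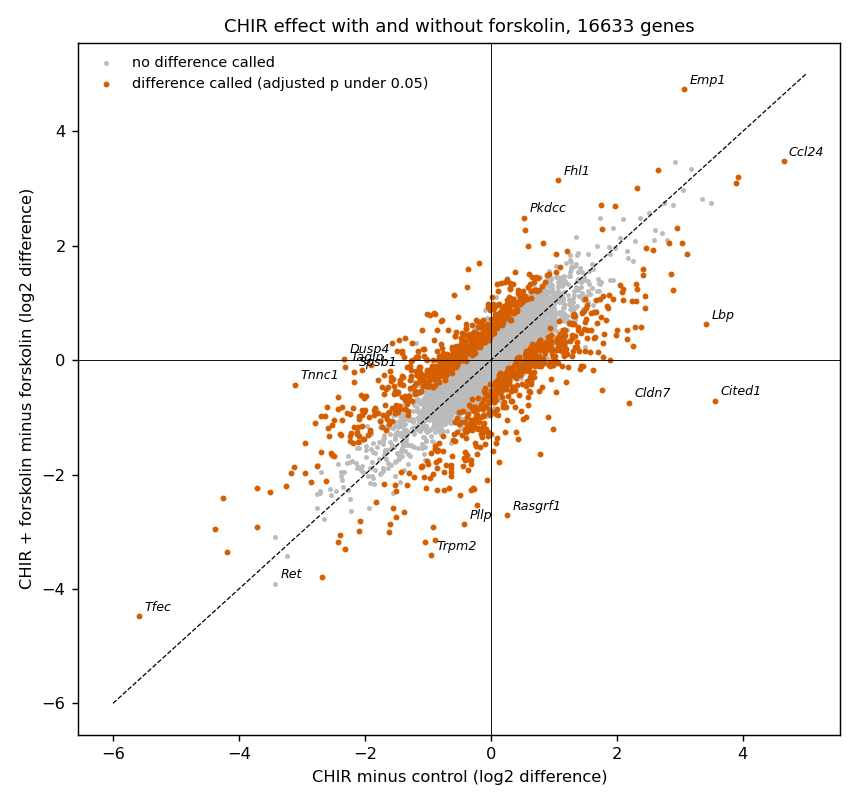
Log2 difference of each of 16633 genes with CHIR in untreated cells (horizontal) and in forskolin-treated cells (vertical), with equal effects on the dashed line. Orange points are the 1050 genes whose effects differed by limma at an adjusted p under 0.05, and Cited1 lies at 3.56 and -0.71.

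The genes with the largest such differences fell into recognisable shapes. Cited1, a transcriptional coregulator gene, read 7.73, 7.20 and 7.43 in control, 10.87, 11.08 and 11.07 with CHIR, 10.09, 10.19 and 9.97 with forskolin and 9.56, 9.24 and 9.32 with both. Each compound alone thus gave a higher signal than control, while CHIR on top of forskolin gave -0.71 (SE 0.128, adjusted p = 0.000635). In Cldn7 CHIR gave 2.19 (adjusted p = 1.79e-09) without forskolin and -0.74 with it. Lbp, which encodes a lipopolysaccharide-binding protein, differed by 3.41 (adjusted p = 1.48e-07) without forskolin, whereas with it the arrays read 11.56, 10.35 and 10.27 against 10.07, 10.16 and 10.04. The difference of 0.63 did not pass (adjusted p = 0.077). Combination replicate 1 stood apart there, and Lbp passed without combination replicate 2 (0.822, adjusted p = 0.0379) or 3 (0.861, adjusted p = 0.0245).

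Rasgrf1 and Trpm2 were high in forskolin alone and close to their control values with both compounds. Rasgrf1, an exchange factor for Ras and Rac, read 7.61, 7.52 and 7.76 in control, 10.26, 10.47 and 10.35 with forskolin and 7.91, 7.66 and 7.39 with both, and the effect of CHIR was -2.71 (SE 0.173, adjusted p = 4.61e-08). Without forskolin it was 0.25 (adjusted p = 0.337). Trpm2 followed the same order, although not at its brightest probe set (-0.151 for the difference between the effects, adjusted p = 0.916), with means of 6.17, 9.42 and 6.01. Its control and combination means lay below the background reference of 6.42. A fall without forskolin as large as that with it could therefore not have been measured. Pllp, a membrane protein gene of myelin and epithelia, was instead lowest with both compounds, with means of 8.87 in control, 9.51 with forskolin and 6.65 with both. It fell by 2.86 (SE 0.083, adjusted p = 2.92e-11) with forskolin and by 0.42 (adjusted p = 0.00131) without.

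In a further group the gene was already low with forskolin, and CHIR added little. The forskolin means of Tagln (7.05), Dusp4 (6.71) and Tnnc1 (6.70) lay close to the background reference of 6.42. A further fall as large as that without forskolin could therefore not have been measured. Tagln, a smooth muscle actin-binding protein gene, read 9.36, 9.28 and 9.31 in control, 6.84, 7.03 and 7.15 with CHIR, 7.07, 7.14 and 6.93 with forskolin and 6.92, 6.93 and 6.93 with both. The effect of CHIR was -2.31 (adjusted p = 2.47e-10) without forskolin and -0.12 (adjusted p = 0.369) with it. The ERK phosphatase gene Dusp4 had a CHIR effect of -2.33 (adjusted p = 1.22e-08) without and 0.025 (adjusted p = 0.92) with forskolin. For Tnnc1, a troponin gene, the effects were -3.10 (adjusted p = 4.44e-10) and -0.43 (adjusted p = 0.0193), and the latter did not pass without combination replicate 2 or forskolin replicates 1 or 2 (-0.351 to -0.398, adjusted p = 0.0657 to 0.0855). Spsb1, a ubiquitin ligase adaptor gene, differed from these, as its forskolin arrays (8.66, 8.79 and 8.53) were not below control (8.08, 8.33 and 8.23). CHIR lowered it without forskolin (-2.18, adjusted p = 6.72e-08) and did not pass with it (-0.20, adjusted p = 0.355). Fhl1 and Pkdcc, a secreted tyrosine kinase gene, had larger rises in forskolin-treated cells, 3.15 against 1.06 and 2.49 against 0.53, but the brightest probe set of Fhl1 gave 0.332 for that difference (adjusted p = 0.458).

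**Figure D5:**
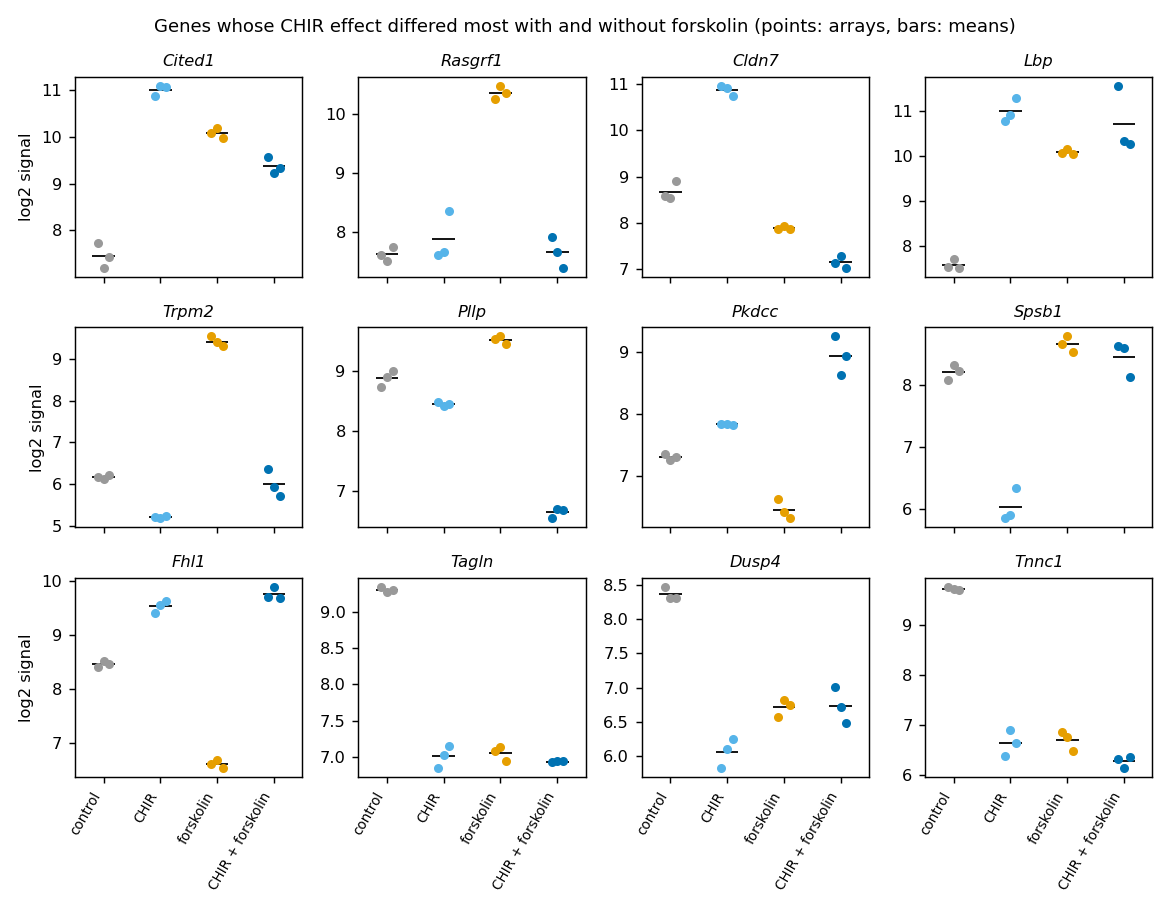
Log2 signal of the 12 genes with the largest differences between the CHIR effects, in control, CHIR, forskolin and both, with 1 point per array and a bar at each mean. The vertical axes differ between genes, and in Tagln the 3 treated groups lie together between 6.84 and 7.15 while control lies between 9.28 and 9.36.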

How the data were processed

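Gene expression of rat XEN cells was measured on 12 Affymetrix exon-level arrays, 3 in each of 4 groups. Per the submitters' processing notes, which name Partek and RMA, the authors made 1 value per probe set and array. The deposited values were taken as log2 from their range, since the labels do not state the base. From 211195 probe sets, 172924 that carry 1 gene symbol were kept, 1661 with several and 36610 with none were left out, and the median over the probe sets of a gene gave 16633 genes (symbols updated through RefSeq). A gene had a median of 8 probe sets. No filter on low signal was applied.

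limma 3.58.1 in R 4.3.3 fitted 4 group means to all 12 arrays. The contrasts were CHIR with forskolin against forskolin, CHIR against control, and the difference of these. Every adjusted p is limma's, Benjamini-Hochberg adjusted over all 16633 genes, with a threshold of 0.05. Values are log2 signals, and differences are log2 differences. On data simulated for the main comparison with 16633 genes, 61% of changes of 0.5 and 95% of changes of 1 were recovered, with 7 false calls. A far smaller share of genes was changed there than the 30.0% called in the data, and the noise was independent. Recovery in the data may therefore differ. With 3 arrays a group, their number limits the precision.

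The comparison and the 29 lists, of which 614 of 674 entries were measured, were chosen with earlier results of these data known. Genes named are the 12 largest rises and 12 largest falls past the threshold that do not overlap between groups and have a higher group mean at or above the median gene (7.48), up to 4 called members per list, any member of the Wnt feedback, parietal, visceral and extraembryonic endoderm factor lists, and the 6 largest positive and 6 largest negative differences between the effects. Alternatives were the 6 arrays alone, a replicate block, the mean or the brightest probe set, median centring, a trended prior, bright genes only and leaving out each array.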

Additional observations from a re-analysis of the deposited data

Results flagged for a closer look

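For 12 genes the effect of CHIR differed between forskolin-treated and untreated cells by limma, and they have the largest such differences by the naming rule. The values are the effect with forskolin minus that without, on the log2 scale. They were positive for Tnnc1 (2.675), Dusp4 (2.351), Tagln (2.194), Fhl1 (2.084), Spsb1 (1.974) and Pkdcc (1.966). They were negative for Cited1 (-4.267), Rasgrf1 (-2.960), Cldn7 (-2.934), Lbp (-2.780), Trpm2 (-2.453) and Pllp (-2.441). For Tnnc1, Dusp4, Tagln and Spsb1 the larger effect was the fall without forskolin, and for Cldn7, Cited1 and Lbp it was the rise without forskolin. Tnnc1, Dusp4 and Tagln were close to the background reference with forskolin alone, which limits the fall that can be measured there. Trpm2 lay below that reference in control, which limits the fall that can be measured without forskolin.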

How the results depend on the processing

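Counts of changed genes kept within 1.5 times of the main count under every alternative run, with 4250 to 6416 genes changed by CHIR in forskolin-treated cells, 2103 to 3597 higher and 1916 to 2819 lower. The exception was the count of genes whose CHIR effect differed with and without forskolin, which was 1870 with the mean of probe sets and 630 with the brightest probe set against 1050. With a replicate block 4907 genes changed (2685 higher, 2222 lower) and 978 differed between the effects. Samples of the same number in the combination and forskolin groups did not deviate together (correlations of 0.005, -0.025 and -0.109), so the numbers were not taken as pairs. Of 187 genes that the naming rule takes, 152 passed in the main comparison, and 6 of these turned their sign. Genes that did not pass were not checked for sign. With the brightest probe set Fhl1 gave -0.009, Myc -0.120, Ihh -0.122, Prrx1 -0.294, Col1a2 -0.479 and Vwf 0.189. With the mean of probe sets Prrx1 gave -0.009 and Col1a2 -0.007. The cause was not tested. Over all alternatives, 2304 values for the 187 genes kept their side of the threshold, with direction checked only where the main value passed. Another 79 (26 genes) fell short of the threshold and 6 (5 genes) newly passed. List medians moved by more than the replicate spread in 14 cases. With the brightest probe set they were -0.309 for parietal endoderm (-0.512 with the mean), -0.265 for extraembryonic endoderm factors, -0.269 for matrix, 0.709 for mitosis and -0.118 for fibroblast markers. With bright genes only they were 1.363 for Wnt feedback, 0.469 for anterior visceral endoderm, -0.559 for mesenchymal genes, -0.528 for matrix, -0.412 for growth factors, -0.719 for thyroid-type genes, -0.588 for the Oct4 and methyltransferase list and 0.953 for trophoblast markers. Medians of the mesoderm and fibroblast marker lists had no value with bright genes only. That filter keeps a gene through whichever group it is highest in, so larger medians under it are no added support. Probe sets near background limit what can be called for genes under 6.42.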

Other observations

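Probe sets of 1 gene did not always move together. Of 172924 probe sets, 18572 were higher and 17799 lower with CHIR in forskolin-treated cells by limma at an adjusted p under 0.05 over all probe sets. In 28 genes at least 2 probe sets were higher and at least 2 lower. Cacna1d, a calcium channel gene chosen here after its values were seen, had 9 of 57 probe sets higher and 23 lower, and its gene value did not pass (-0.21, adjusted p = 0.261).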
